A study of Homo sapiens with 6 samples.

Results

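Tight junctions seal the space between neighbouring epithelial cells near their apical border. Claudins and occludin span the membrane and form the sealing strands, junctional adhesion molecules join them, and scaffold proteins of the zonula occludens family tie the strands to the actin cytoskeleton, with PATJ linking them to the apical polarity machinery. Carcinomas of the ovary are known for high levels of several claudins. The 9 genes described here are the rows of a deposited count table with the symbols TJP1, TJP3, OCLN, F11R, CLDN1, CLDN3, CLDN4, CLDN7 and PATJ, out of 26699 rows. Of them, 8 passed the low-count filter and were among the 15562 genes tested; TJP3 did not.

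The libraries were made from poly(A) RNA of the established human cell line OVCA433, from an ovarian cancer, with 3 libraries of the genotype OVSOGA1si (called si here) and 3 of OVSOGA1sinc (called sinc). The study concerns a deficiency of SOGA1, a gene for a coiled-coil protein. Neither abbreviation is spelled out in the labels, nor is the reagent behind the si group, its dose or its duration. All libraries come from this 1 line, and no label says whether the libraries of a group were separate cultures, and the p-values therefore describe the spread between these samples alone, which may be technical.

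Total counts lay between 33778707 and 44130601 per library. Levels are in CPM, counts scaled to library size with TMM factors, and changes are log2 fold changes of si minus sinc with their standard error (SE). Adjusted p-values are two-sided and were computed with the quasi-likelihood test of edgeR, with Benjamini-Hochberg adjustment over all genes tested and a threshold of 0.05. SOGA1 itself stood at 62.7 ± 2.60 CPM in sinc against 24.3 ± 3.64 CPM in si (SD, n = 3 a group). Among epithelial markers KRT7, KRT8 and KRT18 were abundant, with group means between 1844 and 2481 CPM, while EPCAM was at 1.22 ± 0.247 CPM in sinc against 1.93 ± 0.260 CPM in si (SD, n = 3 a group) and CDH1 was not analysed here. PAX8, a transcription factor of ovarian carcinoma, reached 687 ± 22.1 CPM in sinc against 602 ± 94.7 CPM in si (SD, n = 3 a group). WFDC2 was low in both groups, at 0.0847 ± 0.0913 CPM in sinc against 0.423 ± 0.160 CPM in si (SD, n = 3 a group; adjusted p = 0.115), with all si libraries above sinc. Summed endothelial markers lay between 11.6 and 13.9 CPM in sinc and between 8.62 and 11.4 CPM in si, mostly from CDH5, with PECAM1 at 0 to 0.145 CPM. Summed leukocyte markers lay between 19.0 and 25.0 CPM in sinc and 20.4 and 26.3 CPM in si, nearly all from CD68. Summed fibroblast markers lay between 103 and 108 CPM in sinc and between 128 and 141 CPM in si. They came nearly all from COL1A1, the 1 of the list's 3 tested genes past the threshold (log2 fold change 0.34, adjusted p = 0.0172). Over all genes tested, 4.14% passed as higher. PDGFRB (log2 fold change 0.37) and LUM (-0.69) did not pass, and DCN and PDGFRA were at 0 in all si libraries. The part of these other markers in the junction results was not tested.

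One junction scaffold gene fell in si, a call that ended when libraries were corrected for transcript length and GC content, and no other of the 8 genes passed the test. TJP1, which encodes the scaffold ZO-1, was 0.71 lower on the log2 scale. Occludin (OCLN) and PATJ also stood lower in every si library, and F11R and CLDN7 stood higher in every si library, without passing the threshold. The count was 0 higher, 1 lower and 7 not past the test, where 10.1% of all genes tested passed, 6.00% as lower and 4.14% as higher. Upper-quartile scaling gave a different split over all genes, with 1005 higher and 890 lower against 645 and 934. At an unadjusted p under 0.05 there were 4 (TJP1, OCLN, PATJ and CLDN7), beside 4529 of all 15562 genes tested. By DESeq2 and by limma-voom 1 of the 8 was called, in each case as lower, with 0 higher. DESeq2 gave no adjusted p for CLDN3 and CLDN7, so it could not call them. Over all genes DESeq2 called 2926 and limma-voom 1710. All 3 si libraries lay below all 3 sinc libraries for 3 of the 8 genes and above them for 2, while over all genes tested the shares were 16.8% and 18.1%. The median change of the 8 genes was -0.23, beside 0.0058 for all genes.

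**Figure D1:**
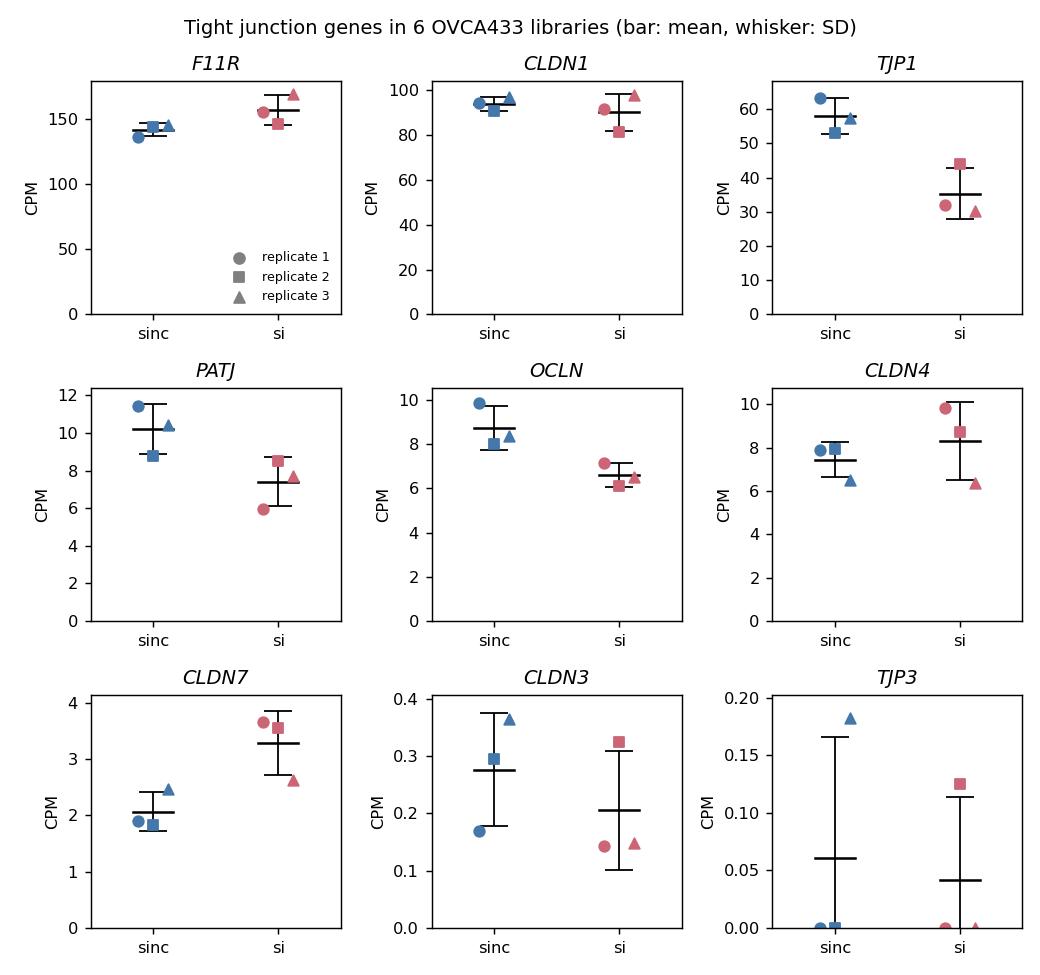
Level of each of the 9 genes in CPM (vertical axis, from 0, with its own scale per gene) in the 3 sinc and 3 si libraries; symbols mark replicate numbers, the bar is the mean and the whisker 1 SD. The groups separate for TJP1, PATJ, OCLN, F11R and CLDN7 and overlap for the other 4 genes, and si replicate 2 is the si library closest to sinc for TJP1.

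TJP1 (ENSG00000104067; chromosome 15, 29699367 to 29968865, minus strand; GRCh38 positions of GENCODE 29, here and for the genes that follow) had 63.4, 53.1 and 57.6 CPM in sinc and 31.9, 43.9 and 30.3 CPM in si, in replicate order. The groups did not overlap, and si replicate 2 lay about midway between its own group and sinc. The means were 58.0 ± 5.15 CPM in sinc against 35.3 ± 7.42 CPM in si (SD, n = 3 a group), a level 60.9% of that in sinc (log2 fold change -0.71, SE 0.14, 95% interval -1.05 to -0.38, adjusted p = 0.0254). In a bulk library, fewer cells that carry a transcript and less of it per cell cannot be told apart. The change stayed between -0.90 and -0.62 with any 1 library left out, but the call was lost without sinc replicate 1, 2 or 3 or si replicate 1 (log2 fold changes -0.65, -0.77, -0.72 and -0.65, adjusted p = 0.112, 0.0634, 0.0906 and 0.0958). It held without si replicate 2 (log2 fold change -0.90, adjusted p = 0.0020) or si replicate 3 (-0.62, adjusted p = 0.0437). On the first principal component of all genes tested, with 39.0% of the variance, si replicate 2 (-13.0) also lay among sinc (-40.6, -17.7 and -11.0). There si replicates 1 and 3 stood at 37.1 and 45.3. Without si replicate 2 the calls over all genes went from 1579 to 2563. With each library corrected for transcript length and GC content the change of TJP1 was -0.34 and its call was lost (adjusted p = 0.0713). The pseudogene HMGN2P5 lies inside TJP1 on the opposite strand and had 9.03 ± 1.26 CPM in sinc against 12.1 ± 0.773 CPM in si (SD, n = 3 a group), against the direction of TJP1. The libraries mark strand, but whether the counting used it is not given in the sources used here.

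The other zonula occludens scaffold among the 9, TJP3 (ZO-3; chromosome 19, 3708109 to 3750813, plus strand), was barely detected. It had 7 counts in sinc replicate 3, 5 counts in si replicate 2 and 0 in the other 4 libraries, where 3 counts, the limit that a count of 0 allows, would be 0.0680 to 0.0885 CPM. No difference was detectable at this depth, and this limit covers counting error only.

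PATJ (chromosome 1, 61742406 to 62178675, plus strand), a multi-PDZ protein of the Crumbs polarity complex, had 11.4, 8.80 and 10.4 CPM in sinc and 5.96, 8.49 and 7.73 CPM in si. The groups did not overlap, but sinc replicate 2 and si replicate 2 nearly met. Its means were 10.2 ± 1.33 CPM and 7.40 ± 1.30 CPM (SD, n = 3 a group; log2 fold change -0.47, SE 0.18, adjusted p = 0.13), which did not pass.

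Of the strand-forming membrane proteins, OCLN (occludin; chromosome 5, 69492292 to 69558104, plus strand) had 9.87, 7.98 and 8.35 CPM in sinc and 7.16, 6.12 and 6.49 CPM in si. All si values lay below all sinc values, at means of 8.73 ± 1.000 and 6.59 ± 0.528 CPM (SD, n = 3 a group; log2 fold change -0.41, SE 0.15, adjusted p = 0.115), without passing. The annotation lists a pseudogene copy, OCLNP1, for which no row was found, so OCLN counts are uncertain to the extent that reads were shared with it.

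F11R (chromosome 1, 160995211 to 161021348, minus strand), which encodes the junctional adhesion molecule JAM-A, went slightly the other way. It had 137, 144 and 146 CPM in sinc and 155, 146 and 169 CPM in si, so that the lowest si library only just exceeded the highest sinc library. The means were 142 ± 4.84 and 157 ± 11.7 CPM (SD, n = 3 a group; log2 fold change 0.14, SE 0.07, 95% interval -0.02 to 0.31, adjusted p = 0.216), a difference that did not pass.

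CLDN7 (chromosome 17, 7259903 to 7263983, minus strand) had the largest positive change of the 8 genes, at a low level. It had 1.89, 1.84 and 2.47 CPM in sinc and 3.67, 3.55 and 2.63 CPM in si, from 78 to 142 counts per library. The groups did not overlap, although si replicate 3 lay close to sinc replicate 3. Its means were 2.07 ± 0.352 and 3.28 ± 0.570 CPM (SD, n = 3 a group; log2 fold change 0.67, SE 0.22, 95% interval 0.15 to 1.18, adjusted p = 0.094), which did not pass. The gene overlaps ELP5 on the opposite strand. ELP5 was far more abundant, at 59.5 ± 0.143 CPM in sinc against 68.0 ± 4.73 CPM in si (SD, n = 3 a group; log2 fold change 0.19, adjusted p = 0.113), and its part in the CLDN7 counts was not tested.

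The other 3 claudins gave no separation of the groups. CLDN1 (chromosome 3, 190305701 to 190322475, minus strand), the most abundant claudin of the 9 genes, had 94.2, 90.9 and 97.2 CPM in sinc and 91.6, 81.5 and 97.9 CPM in si (log2 fold change -0.06, SE 0.08, 95% interval -0.24 to 0.12, adjusted p = 0.66). CLDN4 (chromosome 7, 73799542 to 73832693, plus strand), a claudin known to tighten the paracellular barrier, had 7.88, 7.91 and 6.50 CPM in sinc and 9.83, 8.72 and 6.35 CPM in si (log2 fold change 0.16, SE 0.19, 95% interval -0.28 to 0.60, adjusted p = 0.63). The lowest value of either gene was in an si library and so was the highest, so that the spread within si covered that of sinc. CLDN3 (chromosome 7, 73768997 to 73770270, minus strand, a single exon) had only 5 to 14 counts per library, at means of 0.276 ± 0.0986 CPM in sinc against 0.205 ± 0.104 CPM in si (SD, n = 3 a group; log2 fold change -0.40, SE 0.55, adjusted p = 0.67). Its interval, -1.68 to 0.87, leaves its change undetermined at this depth.

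Summed over the 4 claudins, the level was 104 ± 2.82 CPM in sinc against 102 ± 7.00 CPM in si (SD, n = 3 a group; exact two-sided permutation p = 0.9). Summed over all 9 genes it was 323 ± 7.40 and 309 ± 11.4 CPM (SD, n = 3 a group; exact two-sided permutation p = 0.2). With 3 against 3 libraries this test cannot go below 0.1.

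Per kilobase of transcript, F11R and CLDN1 were the most abundant of the 9 genes in sinc, at 29.4 ± 1.00 and 27.0 ± 0.909 CPM per kilobase (SD, n = 3 a group), followed by TJP1 at 8.60 ± 0.763. The libraries of F11R and CLDN1 did not overlap, and both lay well above TJP1. CLDN4, OCLN, CLDN7 and PATJ followed at 1.79, 1.36, 1.34 and 1.17 CPM per kilobase. The sinc libraries of CLDN7 overlapped those of CLDN4, OCLN and PATJ, and those of OCLN overlapped those of PATJ. CLDN3 stood at 0.217 and TJP3 at 0.0206 CPM per kilobase. In si the order was F11R (32.5), CLDN1 (26.0), TJP1 (5.24), CLDN7 (2.13), CLDN4 (1.99), OCLN (1.02) and PATJ (0.847 CPM per kilobase), with overlap between CLDN7 and CLDN4 and between OCLN and PATJ. These levels depend on the transcript taken for the length: with the shortest transcript that holds the longest coding sequence, chosen after the data were seen, OCLN came to 5.00 and CLDN4 to 4.06 CPM per kilobase in sinc, which puts OCLN above CLDN4.

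Among all claudins in the table, the most abundant was none of the 4. CLDN6, named after its level was seen and known as an embryonic claudin found again in some tumours, had 144 ± 4.39 CPM per kilobase in sinc and 153 ± 11.2 in si (SD, n = 3 a group). CLDN11, likewise named after its level was seen, had 31.7 ± 1.12 and 24.4 ± 3.35 CPM per kilobase (SD, n = 3 a group). It was lower in every si library, without passing (log2 fold change -0.38, SE 0.10, adjusted p = 0.0549). Of the other claudins, 7 of 10 with a row were tested. DESeq2 and limma-voom each called 2 as lower and 0 as higher, beside 1622 and 1033 of all genes as lower. By edgeR 0 rose, 1 fell and 6 did not pass, where 4.14% of all genes tested rose and 6.00% fell. The one that fell was CLDN12, a claudin that lacks the PDZ-binding end found on most of the family, from 25.6 ± 2.47 to 15.4 ± 1.89 CPM (SD, n = 3 a group; log2 fold change -0.73, SE 0.13, adjusted p = 0.0156), and its call was lost without any 1 of si replicate 1 and sinc replicates 1 and 3.

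**Figure D2:**
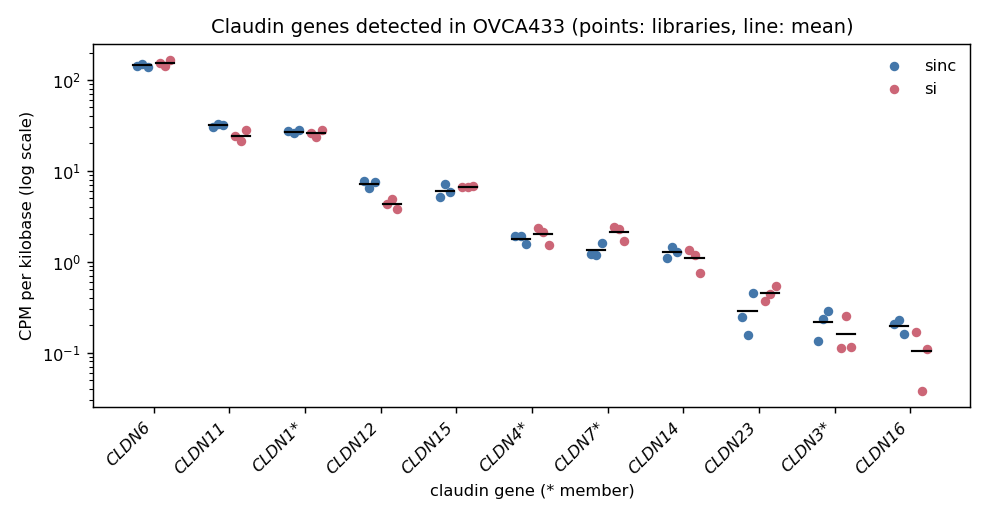
CPM per kilobase of transcript (log scale) of the 11 claudins whose 2 group means sum to over 0.1, ordered by mean level; points are libraries, lines are group means, and an asterisk marks a claudin among the 9 genes. CLDN6 lies above all others, CLDN11 and CLDN12 are lower in every si library than in any sinc library, and CLDN3 and CLDN16 are close to the bottom.

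Genes that act with these 9 at the junction, and regulators of epithelial junction genes, were compared by the same fit. Over these 7 lists, 10 of 83 genes tested passed, 2 higher and 8 lower, where 10.1% of all genes did. The 83 include 12 regulators, of which 0 passed. Other tight junction membrane proteins had 0 of 5 past the test, with 3 at an unadjusted p under 0.05, 1 called by DESeq2 (MARVELD1) and 0 by limma-voom. Of all 15562 genes tested, 4529 had an unadjusted p under 0.05, and DESeq2 called 2926. MARVELD1, a relative of occludin in its membrane domain, had 91.4 ± 5.71 CPM in sinc against 108 ± 7.69 CPM in si (SD, n = 3 a group; log2 fold change 0.24, SE 0.08, adjusted p = 0.0853), which did not pass by edgeR.

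Of 15 other scaffold and adaptor genes, 1 rose and 1 fell, and 13 did not pass, where 4.14% of all genes tested rose and 6.00% fell. The median change of the 15 was -0.16. CGNL1, the cingulin-like protein paracingulin, fell from 28.8 ± 3.86 to 19.1 ± 0.0762 CPM (SD, n = 3 a group; log2 fold change -0.59, SE 0.11, adjusted p = 0.0204). YBX3, a Y-box factor known to bind ZO-1, rose from 275 ± 4.93 to 348 ± 26.5 CPM (SD, n = 3 a group; log2 fold change 0.34, SE 0.07, adjusted p = 0.0231). Both calls were lost without any 1 of si replicate 1 and sinc replicates 1 and 3, and that on YBX3 also without sinc replicate 2 or without a low-count filter (adjusted p = 0.0605). Of 17 apical polarity genes 0 rose, 1 fell and 16 did not pass. PARD3B, a relative of the polarity protein PAR3, fell by 0.92 on the log2 scale (8.21 ± 1.31 to 4.33 ± 0.864 CPM, SD, n = 3 a group; SE 0.20, adjusted p = 0.0307) and passed in 1 of 6 fits that each left out a library, the one without si replicate 2.

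The largest change in these lists lay in the actomyosin that the junction scaffolds bind. Of 14 genes tested, 0 rose, 2 fell and 12 did not pass, where 4.14% of all genes tested rose and 6.00% fell. MYH9, the heavy chain of non-muscle myosin IIA, had 2919, 3076 and 3434 CPM in sinc and 1216, 1149 and 759 CPM in si. The lowest sinc library had more than the highest si library by a wide margin. Its means were 3143 ± 264 and 1041 ± 247 CPM (SD, n = 3 a group), 33.1% of the sinc level (log2 fold change -1.59, SE 0.17, adjusted p = 0.00286). It passed with each of the 6 libraries left out, at log2 fold changes between -1.73 and -1.42. MYH10, the heavy chain of myosin IIB, fell from 124 ± 12.6 to 79.8 ± 4.97 CPM (SD, n = 3 a group; log2 fold change -0.63, SE 0.09, adjusted p = 0.00848), and its call was lost without sinc replicate 1.

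At the adherens junction, which lies beside the tight junction, 1 of 13 genes rose, 3 fell and 9 did not pass. Over all genes tested, 4.14% rose and 6.00% fell. CTNND1 (p120-catenin, which holds cadherins at the surface) fell from 184 ± 7.81 to 133 ± 6.30 CPM (SD, n = 3 a group; log2 fold change -0.47, SE 0.06, adjusted p = 0.00724) and passed with each library left out, but not after correction for transcript length and GC content (-0.18, adjusted p = 0.26). AFDN, which encodes the nectin-binding protein afadin, fell from 41.6 ± 7.01 to 22.7 ± 2.17 CPM (SD, n = 3 a group; log2 fold change -0.87, SE 0.13, adjusted p = 0.011), and its call was lost without sinc replicate 1. CTNNB1 (beta-catenin) fell by 0.29 and AJUBA, a LIM protein that binds alpha-catenin, rose by 0.28 on the log2 scale (SE 0.07 and 0.07, adjusted p = 0.0447 and 0.0449), both near the threshold. Leaving out any 1 of the 6 libraries ended the call on CTNNB1, and leaving out any but si replicate 2 ended that on AJUBA. AJUBA did not pass with total-count scaling (adjusted p = 0.0655), and without a low-count filter neither AJUBA (adjusted p = 0.115) nor CTNNB1 (adjusted p = 0.0608) did.

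Regulators known to turn epithelial junction genes on or off had 0 of 12 past the test by edgeR and 0 by DESeq2 or limma-voom. Of all 15562 genes tested, edgeR called 10.1%, DESeq2 2926 and limma-voom 1710. At an unadjusted p under 0.05 there was 1 regulator, beside 4529 of all 15562 genes tested. By CPM averaged over both groups, the most abundant regulators were KLF5, a Krüppel-like factor, at 31.4 ± 1.41 CPM in sinc against 32.0 ± 4.21 CPM in si, and ESRP2, an epithelial splicing regulator, at 12.4 ± 0.780 and 12.9 ± 1.08 CPM (SD, n = 3 a group). For both genes the groups overlapped.

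**Figure D3:**
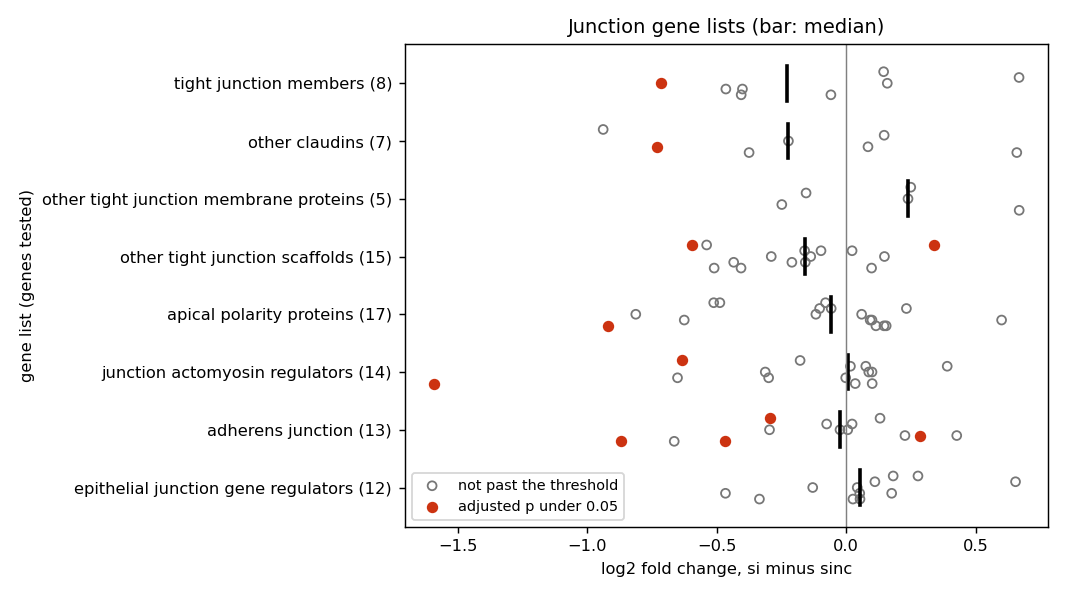
Log2 fold change, si minus sinc, of the genes tested in each of 8 junction lists (1 point a gene, number tested in brackets); filled points passed the threshold and vertical bars are list medians. The 8 tight junction genes spread from -0.71 (TJP1) to 0.67 (CLDN7), and the lowest point is MYH9 at -1.59.

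Long transcripts tended to be lower in si over all genes, and the 3 of the 8 genes with every si library below sinc had the longest transcripts as measured here. Of the 15562 genes tested, 12829 had a coding transcript in GENCODE 29. In the shortest quintile of these by transcript length 1.56% were called lower and 10.8% higher, and in the longest quintile 15.9% lower and 0.818% higher, with medians of 0.16 and -0.30. The longest quintile held TJP1 (6747 bases), OCLN (6438 bases) and PATJ (8730 bases). CLDN7 (1542 bases) lay in the shortest quintile, as did CLDN3 (1274 bases), while CLDN1 (3481 bases) was in the middle quintile and F11R (4835 bases) and CLDN4 (4163 bases) in the next longer one. The length of OCLN depends on the transcript taken: the shortest that holds its longest coding sequence has 1748 bases, in the range of the second-shortest quintile (1747 to 2592 bases), and that of CLDN4 has 1831 bases. No correction was run with those lengths. The trend differed between libraries of 1 group too: the longest minus the shortest quintile, as the median deviation from the mean over the 6 libraries, was 0.38, 0.13 and 0.19 in sinc and -0.34, -0.07 and -0.33 in si, in replicate order. TJP1, PATJ and OCLN each had their highest level in the library with the highest trend, sinc replicate 1. Within si, TJP1 and PATJ were highest in si replicate 2, while OCLN was lowest there. Whether their levels follow the trend was not tested.

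When each library was corrected for transcript length and GC content, none of the 8 genes passed (0 of 8, where 4.58% of the 12829 genes did). TJP1 moved to -0.34 (SE 0.09, adjusted p = 0.0713), PATJ to -0.05 (SE 0.14), OCLN to 0.06 (SE 0.18) and CLDN1 to 0.20 (SE 0.11). F11R moved to 0.34 (SE 0.08, adjusted p = 0.0507), just short of the threshold, and CLDN7 to 0.50 (SE 0.22, adjusted p = 0.24). The median change of the 8 genes went from -0.22 on the same 12829 genes without the correction to 0.11 with it. Of the other junction genes, MYH9 (-1.47, SE 0.14, adjusted p = 0.00172), MYH10 (-0.37, adjusted p = 0.0466) and AJUBA (0.34, adjusted p = 0.0362) passed after correction. CLDN11, named after its value was seen, passed as lower (-0.43, adjusted p = 0.0326), while CTNND1, AFDN (-0.55, adjusted p = 0.0609), CTNNB1, CLDN12, CGNL1, YBX3 and PARD3B did not. Whether the length trend arose in the cells or in the libraries cannot be told apart in this design, since it moves with the groups.

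**Figure D4:**
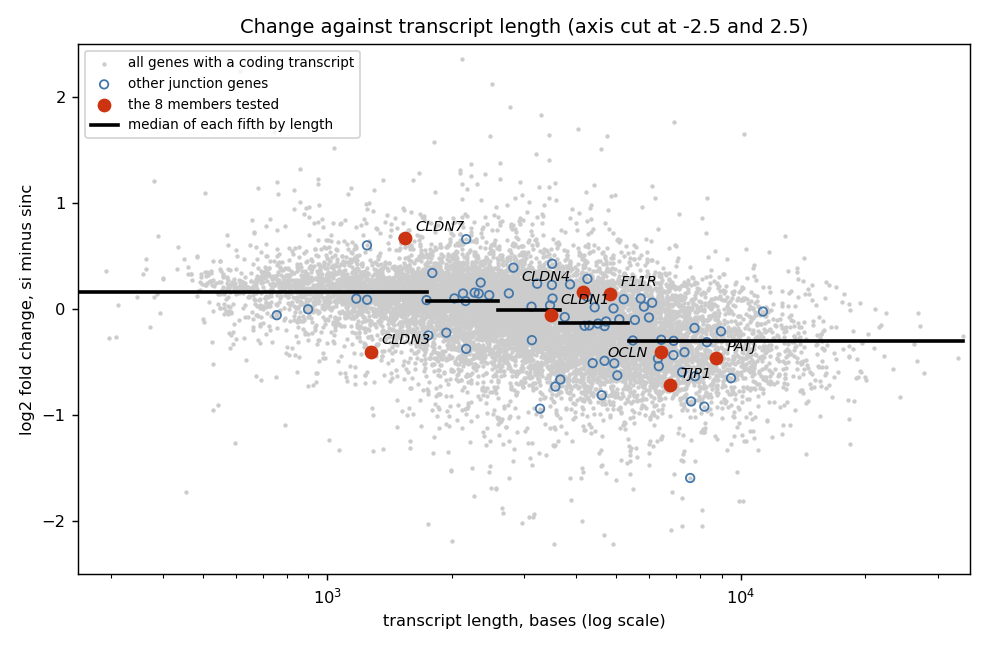
Log2 fold change, si minus sinc, against transcript length in bases (log scale) for the genes with a coding transcript; red points are the 8 tight junction genes tested, open circles other junction genes, and black lines the median of each quintile by length, which goes from 0.16 to -0.30. TJP1, OCLN and PATJ lie at the long end and CLDN7 at the short end.

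**Figure D5:**
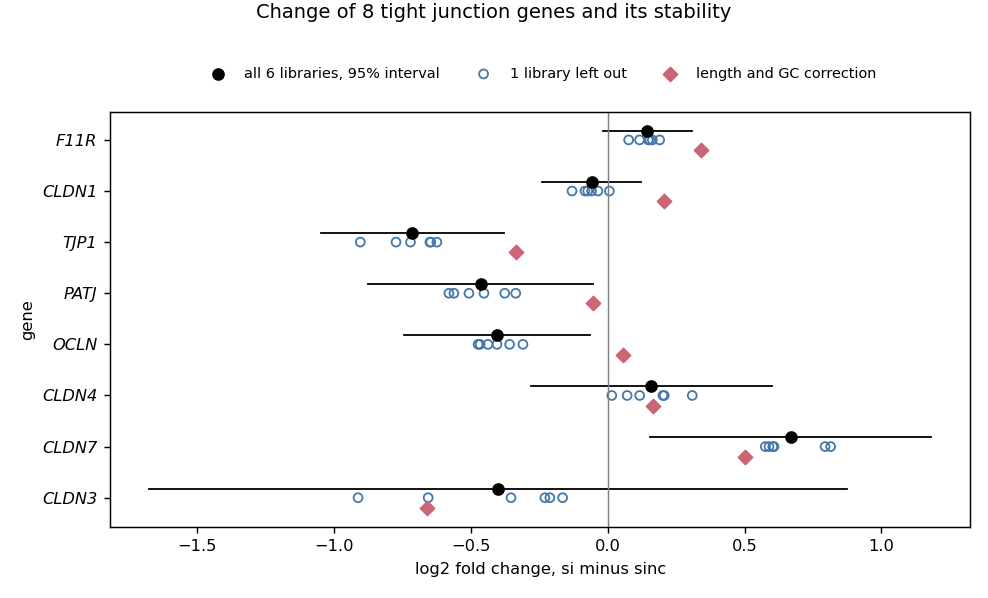
Log2 fold change, si minus sinc, of the 8 genes tested; black points with lines are the fit on all 6 libraries with its 95% interval, open circles the 6 fits with 1 library left out, and diamonds the fit with each library corrected for transcript length and GC content. TJP1 stays below 0 throughout, OCLN and CLDN1 cross 0 with the correction, and F11R lies farther from 0 with it.

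The genes whose level most resembled TJP1 over the 6 libraries, among 10109 genes with a mean of at least 5 CPM, were PTPN11, the phosphatase SHP2 (Pearson r of log2 CPM 0.9995), STXBP3, a syntaxin-binding protein (0.999), and CCND2, cyclin D2 (0.9988). Their log2 fold changes were -0.95, -1.25 and -0.70. For F11R they were FIZ1 (0.993), IMPDH2 (0.993) and CAVIN1 (0.993), with log2 fold changes of 0.29, 0.19 and 0.27, none past the threshold. These likenesses are descriptions over 6 libraries that share the groups, the library depths and the length trend.

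Promoters were searched for the E2-box, the letters CAGGTG or, read on the other strand, CACCTG, which the epithelial repressors SNAI1, SNAI2, ZEB1 and ZEB2 are known to bind. RefSeq on GRCh38.p14 gave 14 windows of 250 bases before a start site for 8 of the 9 genes, including those whose groups overlapped; F11R was not among them. Of the 14, 6 held an E2-box, beside 17.5% of all 35116 windows of that length. Shown is the window with the most copies for TJP1, OCLN, PATJ and CLDN7, whose groups separated (for OCLN the first of its windows, which tied), on the strand of the gene and ending 1 base before the start site, with each E2-box in capitals. The TJP1 window is chr15:29969050-29969299 (minus strand), that of OCLN chr5:69492297-69492546 (plus), that of PATJ chr1:61742230-61742479 (plus) and that of CLDN7 chr17:7262479-7262728 (minus).
TJP1: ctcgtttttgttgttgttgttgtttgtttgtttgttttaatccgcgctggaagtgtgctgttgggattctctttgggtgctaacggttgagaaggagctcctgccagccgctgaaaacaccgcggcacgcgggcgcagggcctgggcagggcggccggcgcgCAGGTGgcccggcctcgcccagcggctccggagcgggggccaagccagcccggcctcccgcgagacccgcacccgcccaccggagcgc
OCLN: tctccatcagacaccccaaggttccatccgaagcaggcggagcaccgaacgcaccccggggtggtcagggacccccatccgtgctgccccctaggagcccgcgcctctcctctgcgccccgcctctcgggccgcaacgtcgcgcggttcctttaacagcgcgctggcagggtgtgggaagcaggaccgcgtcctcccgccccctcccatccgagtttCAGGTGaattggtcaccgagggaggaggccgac
PATJ: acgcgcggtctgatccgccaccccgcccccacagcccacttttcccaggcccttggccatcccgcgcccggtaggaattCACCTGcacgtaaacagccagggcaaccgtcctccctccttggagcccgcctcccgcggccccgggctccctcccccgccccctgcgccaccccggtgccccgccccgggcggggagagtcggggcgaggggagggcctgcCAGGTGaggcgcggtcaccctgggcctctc
CLDN7: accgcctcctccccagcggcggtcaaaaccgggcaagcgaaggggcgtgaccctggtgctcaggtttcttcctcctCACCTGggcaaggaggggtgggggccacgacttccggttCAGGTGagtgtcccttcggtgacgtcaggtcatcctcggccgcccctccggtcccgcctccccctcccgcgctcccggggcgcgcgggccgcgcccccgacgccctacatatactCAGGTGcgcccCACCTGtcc
The CLDN7 window held 4 copies, and 0.464% of all windows held at least 3. PATJ had 2 copies and the TJP1 and OCLN windows 1 each, so the motif stood before genes on either side of 0. A window of TJP3, which was barely detected and not tested, also held 1 copy. The windows of CLDN1, CLDN3 and CLDN4, whose groups overlapped, held none. The 3 other TJP1 windows and the other CLDN7 window held none. The letters AACCGGTT, a motif of grainyhead-like factors that reads the same on both strands and does not overlap the E2-box letters, were in 0 of the 14 windows and in 0.1% of all. ZEB1 had 10.3, 5.62 and 6.37 CPM in sinc and 2.87, 11.3 and 3.45 CPM in si, and ZEB2 had 6.40, 4.63 and 5.62 CPM in sinc and 2.89, 5.32 and 3.81 CPM in si. SNAI1 averaged 4.18 ± 0.471 CPM in sinc against 4.72 ± 0.285 CPM in si, and SNAI2 9.35 ± 1.08 CPM in sinc against 8.55 ± 2.55 CPM in si (SD, n = 3 a group). The groups overlapped for all 4 repressors and none passed (log2 fold changes -0.34, -0.47, 0.18 and -0.13 for ZEB1, ZEB2, SNAI1 and SNAI2, adjusted p = 0.71, 0.26, 0.51 and 0.74); all 4 were named after their values were seen. A match is a description of these letters and not evidence of binding.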

How the data were processed

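Poly(A) RNA of 6 libraries, 3 si and 3 sinc, was made into strand-specific libraries with PCR, per the labels' protocols. The authors deposited 1 table of whole-number counts per gene; CASAVA and StringTie are named in the submitters' processing notes, while the sources used here do not give versions, aligner, genome build or strand setting. No molecular identifiers were used, so counts are not independent molecules, and the limit set by a count of 0 covers counting error only. Intervals on fold changes come from the fit and include the spread between libraries.

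Placeholder and date symbols (773 and 10 rows) were replaced through the gene ID, and genes of a list with no row were not analysed here. Genes were kept by filterByExpr (minimum count 10), scaled by TMM and tested with edgeR 4.0.16 in R 4.3.3 (glmQLFit, glmQLFTest, group as the only term). The SE is the size of the log2 fold change divided by the root of its F statistic. Single values had an exact permutation test. Lists are described by counts and medians. Positions and lengths came from GENCODE 29 on GRCh38, taking the transcript with the longest coding sequence.

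The 9 genes, the lists and the naming rule were chosen with earlier results of these data known. The rule named all 9 genes, SOGA1, up to 4 genes past the threshold per list or else the 2 most abundant, and the 3 genes most like the gene with the smallest adjusted p and like the most abundant one; 1 gene that it takes is left out of the text. Alternatives tried were DESeq2 1.42.0 and limma-voom (limma 3.58.1), scaling by RLE, upper quartile or total count, no filter, a minimum count of 50, a replicate block, splines (4 degrees of freedom) for length and GC as offsets, other transcripts for lengths, and each library left out. Added after seeing the data were the shortest transcript with the longest coding sequence, and leaving out sinc replicate 1 and si replicate 2 together. Library pairs of a group differed beyond sampling noise. The test was tested on simulated data without a length trend, in 3 draws with 200 changed genes each. It called 17.2%, 59.6% and 84.8% of changes of 0.5, 1 and 2 on the log2 scale. Of its calls 6.59% were false. These rates hold for that simulated setting, while the data gave 1579 calls, so they may not carry over to the data.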

Additional observations from a re-analysis of the deposited data

How the results depend on the processing

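The number of the 8 tight junction genes called was 1 under every scaling, DESeq2, limma-voom, no filter and a minimum count of 50. DESeq2 gave no adjusted p for CLDN3 and CLDN7, and CLDN3 was not tested at a minimum count of 50. The number called was 0 under the replicate block, the length and GC correction, and both together. With 1 library left out it was 0 to 1, and without both sinc replicate 1 and si replicate 2 it was 1. Over all genes the 1579 calls became 2926 with DESeq2, 844 without a filter, 438 with the replicate block, 587 with the length and GC correction, 234 with both, and 203 to 2563 with a library left out. The 10 calls in the other junction lists became 21 with DESeq2, 4 with the replicate block, 4 with the length and GC correction, 1 with both, and 2 to 19 with a library left out. No label says whether the replicate numbers pair the libraries. Same-numbered libraries correlated at -0.18, -0.03 and 0.15 in their deviations from the group means, and the other pairs at -0.28 to 0.32. These values cannot decide on shared cultures or batches, since the deviations are centred within groups of 3. With the block TJP1 stood at -0.73 (adjusted p = 0.0614 by edgeR). The block also ended the calls on CTNNB1, AJUBA, YBX3, PARD3B, CLDN12 and CGNL1.

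Among the genes named by the rule and the summed levels, directions turned for values that had not passed: OCLN with the length and GC correction (0.056, and 0.035 with the block), CLDN1 with it (0.20, and 0.20 with the block), without si replicate 2 (0.0060; -0.13 to 0.0060 over the 6 fits with a library left out) and without both libraries (0.010), KLF5 with no filter (-0.0061), without sinc replicate 3 (-0.00058) and without si replicate 3 (-0.097; -0.097 to 0.080 over the 6), and ESRP2 without si replicate 1 (-0.020; -0.020 to 0.099 over the 6). Of genes named outside the rule or as markers, KRT7 (-0.089), KRT8 (-0.046), CLDN6 (-0.092), CD68 (-0.074), SNAI2 (0.042), ZEB1 (0.012) and ZEB2 (0.017), none past the threshold, also turned with the length and GC correction, as did the median of the 8 genes (0.11). The summed claudin level differed by 2.25 CPM in place of -1.76 without si replicate 2, and by -4.21 to 2.25 CPM over the 6. Per kilobase in sinc, TJP1 came to 7.30 and CLDN7 to 1.07 CPM with the longest transcript, and OCLN to 5.00, CLDN4 to 4.06 and CLDN7 to 1.68 with the shortest transcript holding the longest coding sequence. Where no cause is built into an alternative, the cause was not tested. CLDN3 and TJP3 are limited by depth.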
